A study of Mus musculus with 24 samples.

Results

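The genes described here are the cadherins with numbered Cdh symbols and the nonclustered protocadherins with numbered Pcdh symbols (Pcdh11x included), which made up 35 of the 33902 gene symbols in the single-nucleus RNA sequencing (snRNA-seq) table. They were taken by name alone, with no measured value in the rule, and the clustered protocadherins carry other names and were not included. Sorted by textbook family they comprise 5 type I cadherins (Cdh1, Cdh2, Cdh3, Cdh4, Cdh15), 13 type II cadherins (Cdh5 to Cdh12, Cdh18, Cdh19, Cdh20, Cdh22, Cdh24), 5 other cadherins (Cdh13, Cdh16, Cdh17, Cdh23, Cdh26), 4 delta-1 protocadherins (Pcdh1, Pcdh7, Pcdh9, Pcdh11x), 5 delta-2 protocadherins (Pcdh8, Pcdh10, Pcdh17, Pcdh18, Pcdh19) and 3 other nonclustered protocadherins (Pcdh12, Pcdh15, Pcdh20).

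Nuclei came from the ventral hippocampus of untreated adult male mice, 10 to 16 weeks old, of the inbred strains B6 (C57BL/6J, whose genome is the mouse reference) and D2 (DBA/2J, called DBA in the labels). Each strain had 2 snRNA-seq libraries and 2 libraries of single-nucleus chromatin accessibility sequencing (snATAC-seq), each made from the pooled tissue of about 2 animals. The snRNA-seq nuclei were sorted on NeuN, a neuronal antigen, to mix neuronal and non-neuronal nuclei, and the snATAC-seq nuclei were sorted without it. The deposited values are raw counts summed over the nuclei of each of 17 cell types per snRNA-seq library, and of 15 cell types per snATAC-seq library. Totals ran from 139713 counts in the smallest column, a D2 library of CR-CR with 45 nuclei, to 11352265 counts in a B6 library of Exc-DG.

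Cell type names are those of the authors. Exc-DG, Exc-CA3 and the 3 Exc-CA1 types are excitatory neurons of the dentate gyrus and of hippocampal fields, Exc-ENT, Exc-Gpc6 and Exc-Cdh12 are further excitatory types, and Inh-MGE, Inh-CGE and Inh-Lamp5 are interneurons. CR-CR denotes Cajal-Retzius cells, NN-Astro astrocytes, NN-OPC oligodendrocyte precursors, NN-ODC oligodendrocytes, NN-MGC microglia and NN-VLMC vascular and leptomeningeal cells. The glial labels held their defining genes, with summed astrocyte markers (Aqp4, Gja1, Slc1a3) at 2775 CPM (counts scaled to a common library size) in B6 and 3003 CPM in D2 in NN-Astro, and microglial markers (Csf1r, Cx3cr1, C1qa) at 3671 and 4060 CPM in NN-MGC. CR-CR and NN-VLMC differed in makeup between the strains. In CR-CR the summed Cajal-Retzius markers (Trp73, Reln, Lhx5) measured 5322 and 6007 CPM in B6 and 3437 and 1426 CPM in D2, with 171 and 138 nuclei in B6 and 45 and 46 in D2. In NN-VLMC the endothelial gene Flt1 was at 564 and 560 CPM in B6 and 278 and 310 CPM in D2, the pericyte gene Rgs5 at 97.9 and 85.1 against 38.3 and 25.3 CPM, and the fibroblast gene Dcn at 303 and 329 against 527 and 653 CPM. The part of these values in the results for CR-CR and NN-VLMC was not tested.

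Cadherins are single-pass membrane proteins that join cells through calcium-dependent binding between their extracellular repeats. The tail of classical cadherins binds p120 and also beta-catenin, through which the contact is linked to the actin cytoskeleton. Delta protocadherins signal through other partners such as the WAVE complex. In the hippocampus members of both families are known to mark particular neuron types and to take part in the formation of specific synapses.

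Promoters are shown for 4 of the members whose snATAC-seq peaks differed between the strains. Called peaks of Cdh9, Pcdh9 and Pcdh10 also overlapped promoters, which are not shown. The sequences are those of RefSeq on GRCm38.p6, cover 250 bases before to 50 bases after the annotated start, and are written 5′ to 3′ on the strand of the gene, with the CpG dinucleotide (CG, the same on both strands) in capitals. The table held 25 promoters of 22 members, with a median of 14 CpG (range 2 to 38), and over all 32851 promoters of this length the median was 7. Cdh24 (chr14:54641315-54641614, minus strand) held 30 CpG, and 11.7% of all promoters held as many or more. Cdh7 (chr1:109982650-109982949, plus strand) held 18 (29.7%), Pcdh7 (chr5:57717831-57718130, plus strand) 11 (41.4%) and Cdh10 (chr15:18820079-18820378, plus strand) 2 (85.9%). Further Cdh7 promoters held 19 and 4 CpG and are not shown, and the called Cdh7 peak also held the first of these. The window of each overlapped a peak described with the snATAC-seq results, Cdh24 and Cdh7 being members with a higher transcript level in D2 and Cdh10 one whose peak was called without its transcript. The sequence is that of the B6 reference, and D2 alleles were not analysed here.
Cdh24: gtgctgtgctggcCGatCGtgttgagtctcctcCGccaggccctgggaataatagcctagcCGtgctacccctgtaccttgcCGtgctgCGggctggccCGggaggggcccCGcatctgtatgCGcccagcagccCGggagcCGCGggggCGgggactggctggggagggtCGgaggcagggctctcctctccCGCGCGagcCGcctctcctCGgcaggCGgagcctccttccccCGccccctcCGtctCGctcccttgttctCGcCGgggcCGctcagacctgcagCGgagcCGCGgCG
Cdh7: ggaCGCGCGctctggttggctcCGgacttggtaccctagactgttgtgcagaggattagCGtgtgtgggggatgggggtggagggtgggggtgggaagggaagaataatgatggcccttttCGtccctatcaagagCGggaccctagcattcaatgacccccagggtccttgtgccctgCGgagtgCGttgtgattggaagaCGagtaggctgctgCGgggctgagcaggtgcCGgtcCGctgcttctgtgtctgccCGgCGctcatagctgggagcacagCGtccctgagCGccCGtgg
Pcdh7: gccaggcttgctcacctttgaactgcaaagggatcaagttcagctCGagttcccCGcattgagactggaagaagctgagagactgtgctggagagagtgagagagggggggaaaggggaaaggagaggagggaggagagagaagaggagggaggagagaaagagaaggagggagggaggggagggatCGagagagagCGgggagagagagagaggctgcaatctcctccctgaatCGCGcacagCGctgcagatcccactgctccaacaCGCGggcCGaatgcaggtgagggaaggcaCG
Cdh10: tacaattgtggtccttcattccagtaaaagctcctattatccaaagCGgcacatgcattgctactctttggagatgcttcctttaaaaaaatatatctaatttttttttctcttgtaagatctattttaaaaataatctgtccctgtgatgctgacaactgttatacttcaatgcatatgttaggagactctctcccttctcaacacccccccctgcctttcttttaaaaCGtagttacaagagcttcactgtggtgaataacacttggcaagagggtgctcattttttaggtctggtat

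Levels across cell types are given as CPM on 1 scale over all 68 columns (TMM, a scaling of library sizes), with the mean and SD of the 4 libraries. No test between types was made, because the types were named by clustering the same nuclei. Of the 35 members, 28 reached a mean of 10 CPM in at least 1 type and 14 did so in every type (Cdh2, Cdh8 to Cdh13, Cdh18, Pcdh1, Pcdh7, Pcdh9, Pcdh10, Pcdh15 and Pcdh17). The other 7 stayed under 10 CPM everywhere: the epithelial cadherins Cdh3, Cdh16, Cdh17 and Cdh26, the muscle cadherin Cdh15, the endothelial protocadherin Pcdh12 and Pcdh18, whose highest mean was 9.51 CPM in Inh-CGE. Cdh26 had 18 counts in B6 and 0 in D2 over all types, where a count of 0 allows up to 3. Per kilobase of gene span (introns included, as the counts retain them), the highest type means were 13.7 CPM per kb for Pcdh9, 9.52 for Pcdh8, 7.33 for Cdh9 and 6.47 for Cdh19, while the long gene Pcdh15 reached 2.29.

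**Figure D1:**
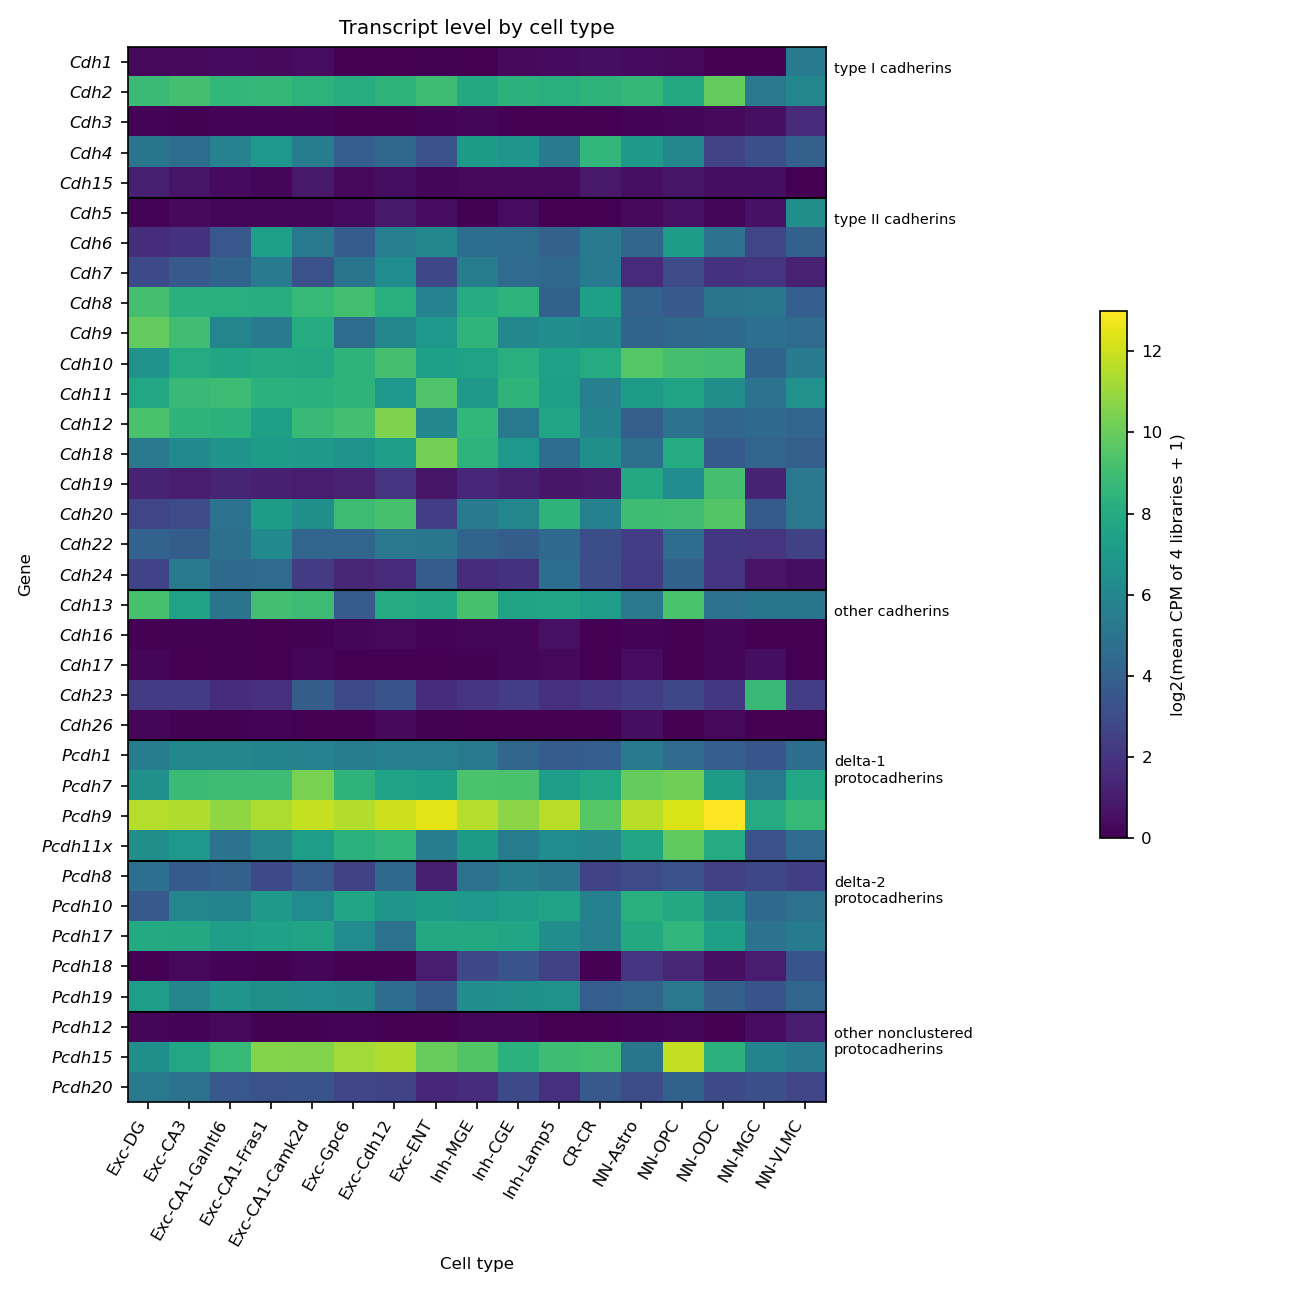
Transcript level of the 35 members (rows, by family) in 17 cell types (columns), coloured as log2 of the mean CPM of the 4 libraries plus 1. Pcdh9 is bright in every type, Cdh1 and Cdh5 stand out in NN-VLMC and Cdh23 in NN-MGC.

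A member was counted as led by 1 type when its lowest library there was at least 2 times its highest library in the next type, which held for 4 of the 28 members (14.3%) and for 10.0% of all genes reaching 10 CPM. The first pair were led by NN-VLMC, the vascular and leptomeningeal type. Cdh5 (VE-cadherin, the adhesion molecule of endothelial junctions) was at 42.4 and 125 CPM in B6 and 93.9 and 81.1 CPM in D2 in NN-VLMC, a mean of 85.7 ± 34.3 CPM, against 0.880 CPM in Exc-Cdh12, the next type. Cdh1 (E-cadherin) was at 19.6 and 27.7 CPM in B6 and 64.5 and 51.6 CPM in D2 in NN-VLMC, and had means under 1 CPM elsewhere. Both were thus near 0 outside the vascular and leptomeningeal nuclei. Cdh23, known with Pcdh15 as the tip link of inner ear hair cells, was at 460, 421, 426 and 453 CPM in NN-MGC and at 13.2 CPM in the next type, Exc-CA1-Camk2d. The 4 microglial libraries were close together, and no other member at 10 CPM or more was highest there. Cdh18 was at 1282 and 1498 CPM (B6) and 1029 and 1133 CPM (D2) in Exc-ENT, against a mean of 339 ± 71.2 CPM in Inh-MGE. With a required ratio of 4 times, 3 were counted, without Cdh18.

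Several further members had their own type without reaching that ratio. Cdh4 (R-cadherin) was highest in CR-CR, at 549, 465, 353 and 165 CPM, and the lowest of these libraries, from D2, came close to the 153 CPM of a B6 library of Inh-MGE. The D2 libraries of CR-CR were also those with the lower Cajal-Retzius markers. Cdh19, a cadherin of glial lineages, was highest in NN-ODC (767, 696, 421 and 427 CPM), followed by NN-Astro (339, 322, 139 and 129 CPM) and NN-OPC (146, 93.6, 44.8 and 33.4 CPM), with a mean of 0.689 CPM in Exc-ENT. In each of these glial types the B6 libraries stood above the D2 libraries. Cdh12 was highest in Exc-Cdh12, the type named for it, at 1575, 1508, 1369 and 1326 CPM, which fell just short of the ratio against Exc-DG (highest library 665 CPM). That order is therefore part of the type's definition and not a finding. Pcdh11x was highest in NN-OPC (927, 869, 806 and 977 CPM) over Exc-Cdh12 (395 ± 54.1 CPM). Pcdh9 was highest in NN-ODC (13747, 13771, 10166 and 10253 CPM) over Exc-ENT (5575 ± 726 CPM), and lowest in NN-MGC (251 ± 107 CPM).

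The remaining members with values in each library were neuronal. Cdh22 was highest in Exc-CA1-Fras1 (77.1, 74.8, 67.5 and 64.5 CPM), Cdh9, known for its role at the synapses of dentate granule cells on CA3 neurons, in Exc-DG (909, 904, 958 and 990 CPM) and then in Exc-CA3 (514 ± 63.9 CPM), and Cdh7 in Exc-Cdh12 (130, 70.1, 57.6 and 61.5 CPM). For Cdh7 the lowest of these libraries and the highest of Inh-MGE were both at 57.6 CPM, so those neighbours did not separate. Exc-DG was also the highest type of Cdh8 (582 CPM), Pcdh19 (153 CPM) and Pcdh20 (37.3 CPM), and NN-OPC that of Pcdh15 (3556 CPM), Cdh13 (634 CPM, the glycolipid-anchored T-cadherin) and Pcdh17 (370 CPM). Cdh2 (N-cadherin, the main classical cadherin of neural tissue) was highest in NN-ODC at 985 CPM and Cdh20 there at 735 CPM. Cdh10 and Pcdh10 were highest in NN-Astro (766 and 309 CPM), Cdh11 in Exc-ENT (690 CPM), Cdh6 in Exc-CA1-Fras1 (160 CPM), Cdh24 and Pcdh1 in Exc-CA3 (38.3 and 65.4 CPM), Pcdh7 in Exc-CA1-Camk2d (1324 CPM) and Pcdh8 in Inh-CGE (43.2 CPM). The libraries of the highest and the next type overlapped for Cdh6, Cdh8, Cdh13, Cdh20, Cdh24, Pcdh1, Pcdh7, Pcdh8 and Pcdh20.

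As a description over the 17 types, with no test, the profiles (log2 of mean CPM plus 1) most alike were those of Cdh1 and Cdh5 (Pearson r = 0.97), Cdh2 and Pcdh9 (r = 0.83) and Cdh10 and Pcdh11x (r = 0.83), and those most opposed were Cdh2 and Cdh23 (r = -0.69). Outside NN-VLMC the type means of Cdh1 and Cdh5 were at most 0.422 and 0.880 CPM, so their r rests on that type. The type means share libraries and depth. Members lie in groups along the genome: 8 cadherins are on chromosome 8, the 5 type II genes Cdh6, Cdh9, Cdh10, Cdh12 and Cdh18 on chromosome 15, and Cdh20, Cdh7 and Cdh19 on chromosome 1. Neighbours did not share a profile throughout, since Cdh20 was highest in NN-ODC and Cdh7 in a neuronal type.

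D2 was then compared with B6 within each cell type by edgeR's quasi-likelihood test on the counts of the 2 libraries a strain, with Benjamini-Hochberg adjustment over all genes of the type, and CPM are from here on scaled within the type. In counts summed over the nuclei of a type, more nuclei carrying a transcript and more transcript per nucleus cannot be told apart. Over 388 tests of a member in a type, 125 (32.2%) passed at adjusted p under 0.05, against 22.1% of all 219518 gene-by-type tests. Of the members' tests 47 (12.1%) were higher in D2, where the share over all genes was 12.9%, and 78 (20.1%) were lower in D2, where it was 9.25%. Restricted to genes with counts in both strains, 113 member tests (29.1%) passed, against 14.4% of all genes. The shares of 12.9% and 9.25%, used below as well, include genes with counts in 1 strain only. Shares by direction without such genes were not computed. A total of 30 members were tested in at least 1 type and 25 (83.3%) were called in at least 1, where 60.7% of all 20666 genes tested were. Of the 25, 14 went in both directions, 5 were higher in D2 only and 6 lower only. Cdh3, Cdh16, Cdh17, Cdh26 and Pcdh12 were too low to test in any type, and Cdh5, Cdh15, Pcdh1, Pcdh8 and Pcdh19 were tested and not called.

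**Figure D2:**
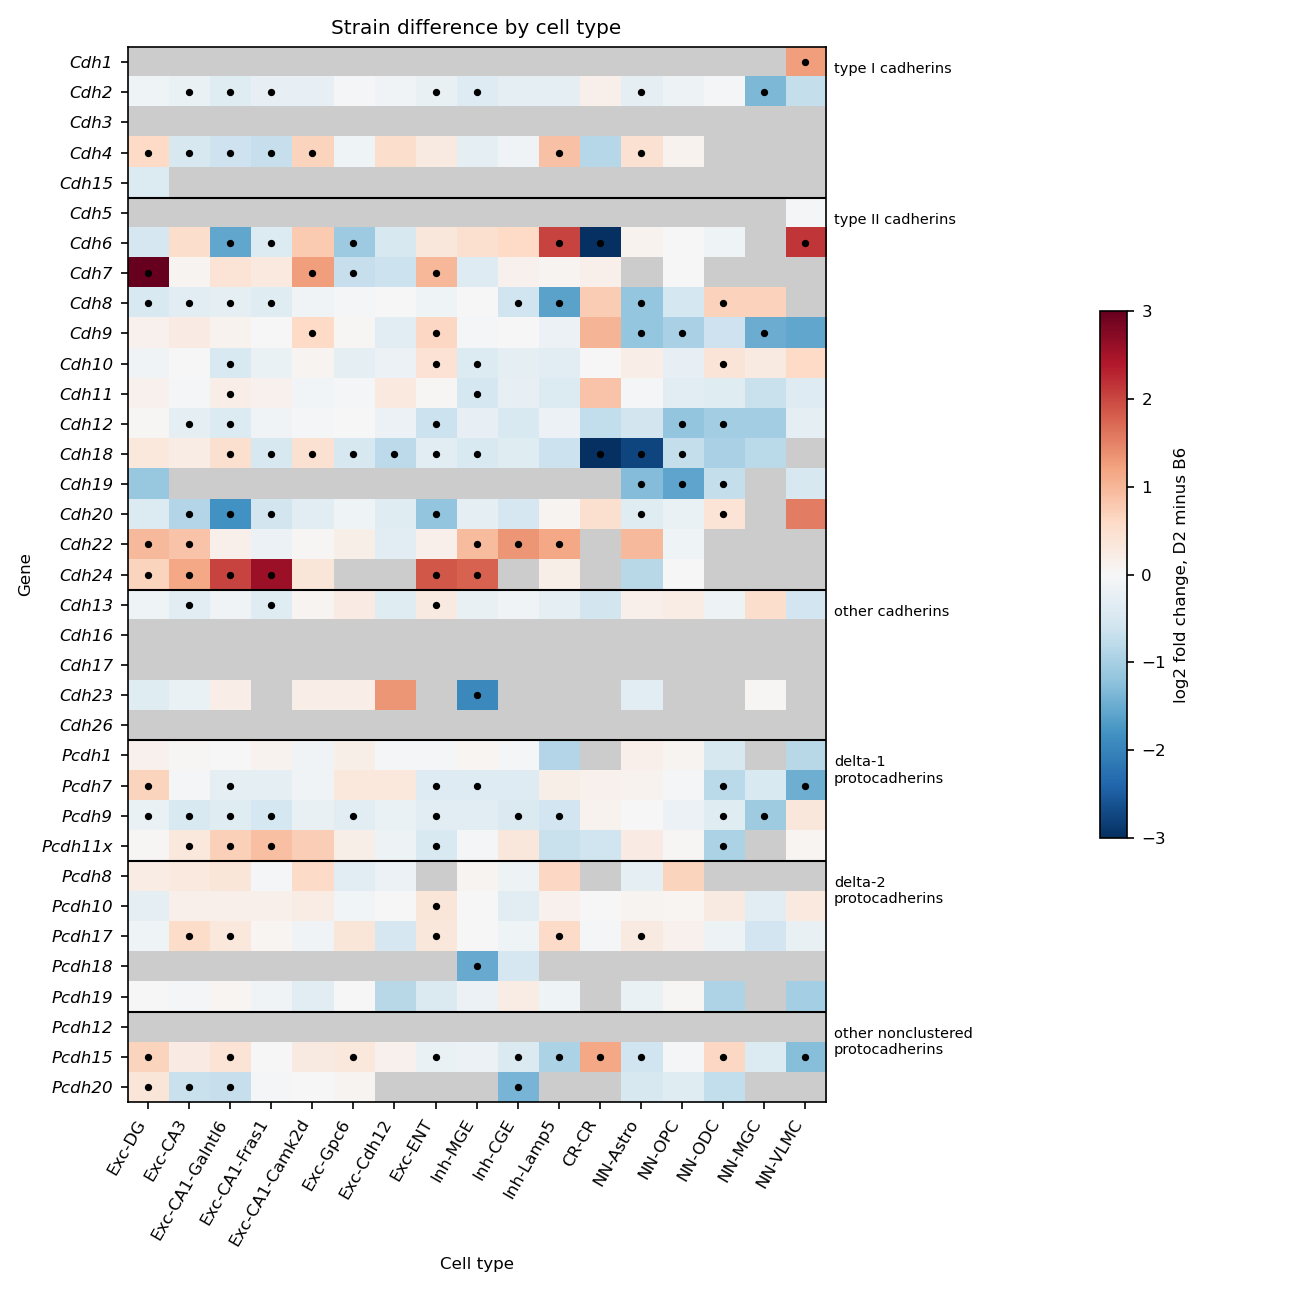
Log2 fold change of D2 against B6 (colour, limits at 3 and -3) for each member and cell type; dots mark adjusted p under 0.05 and grey cells were not tested. Rows such as Cdh24 and Cdh22 hold dots only on red cells, Pcdh9 and Cdh2 only on blue cells, and Pcdh15 and Cdh4 on both.

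The number of members called differed between types. Exc-CA1-Galntl6 had 16 of 25 tested members called (6 higher and 10 lower in D2) beside 35.0% of all its genes, Exc-ENT 15 of 22 (7 and 8) beside 28.0%, Exc-CA3 12 of 25 (4 and 8) beside 32.1% and Exc-DG 9 of 27 (7 and 2) beside 36.0%. The fewest were in Exc-Cdh12, with 1 of 23 beside 8.44%, followed by CR-CR with 3 of 18 beside 4.26% and NN-MGC with 3 of 14 beside 10.4%. Totals reached at most 482936 counts in CR-CR and 744129 in NN-MGC, against at least 5801303 in Exc-CA1-Galntl6.

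Among 33 tests of type I cadherins 5 were higher and 10 lower in D2, where over all genes 12.9% were higher and 9.25% lower. Cdh2 was lower in D2 in 7 of 17 types and higher in none, with a median log2 fold change of -0.25 over all types. In Exc-CA1-Galntl6 it was at 392 and 381 CPM in B6 and 308 and 292 CPM in D2 (log2 fold change -0.36, standard error 0.06, adjusted p = 0.000151). Its largest difference was in NN-MGC, at 79.4 and 60.9 CPM in B6 and 24.5 and 29.2 CPM in D2 (log2 fold change -1.34, adjusted p = 0.0115), a call that DESeq2 did not make. The groups did not overlap in either type. In the NN-MGC libraries markers of some other types were lower in D2 as well. Those of astrocytes were at 383 and 331 against 260 and 224 CPM and of oligodendrocytes at 320 and 352 against 258 and 133 CPM. Those of excitatory neurons were at 134 and 115 against 88.3 and 91.1 CPM. Others were higher in D2, those of oligodendrocyte precursors at 14.3 and 13.8 against 31.9 and 18.2 CPM. Vascular and leptomeningeal markers were at 55.0 and 16.6 against 68.7 and 65.6 CPM. The part of all these markers in the microglial differences was not tested. Cdh4 went in both directions among neighbouring neurons. It was higher in D2 in Exc-DG (20.6 and 25.1 against 36.3 and 32.6 CPM, log2 fold change 0.59, adjusted p = 0.00141) and lower in Exc-CA1-Fras1 (128 and 145 against 98.4 and 69.8 CPM, -0.69, adjusted p = 0.000117) and Exc-CA1-Galntl6 (-0.63, adjusted p = 0.000160). Its largest difference, in Inh-Lamp5 (31.5 and 27.4 against 65.2 and 42.9 CPM, 0.89, adjusted p = 0.0290), was not called by DESeq2, without B6 library 3 (0.78) or without D2 library 2 (0.54). Cdh1 in NN-VLMC was at 28.0 and 38.1 CPM in B6 and 88.1 and 75.8 CPM in D2 (1.26, adjusted p = 0.0298), with 23 and 67 counts. DESeq2 did not call it, nor did the fits without B6 library 2 (1.13), B6 library 3 (1.55) or D2 library 2 (1.13), and the endothelial, pericyte and fibroblast genes given above differed in the same nuclei. Cdh15 (M-cadherin) was tested in Exc-DG only, at a log2 fold change of -0.40.

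Type II cadherins, the largest family here, had 25 of 174 tests higher and 39 lower in D2, in 12 of 13 members. The shares over all genes were 12.9% and 9.25%. Cdh24 was higher in D2 in 6 of 10 types and lower in none. In Exc-CA1-Fras1 its level was 5.86 and 6.03 CPM in B6 and 38.6 and 32.1 CPM in D2 (log2 fold change 2.58, standard error 0.22, adjusted p = 1.57e-09). In Exc-CA1-Galntl6 the values were 8.13 and 7.40 against 31.8 and 31.4 CPM (2.02, adjusted p = 2.69e-08), in Exc-ENT 6.01 and 4.77 against 20.6 and 18.4 CPM (1.86, adjusted p = 1.34e-07) and in Exc-CA3 25.2 and 18.2 against 55.2 and 41.9 CPM (1.16, adjusted p = 1.86e-05). Each D2 library thus lay above each B6 library in these 4 excitatory types, and the B6 level of Exc-CA3 stood above that of the others. Inh-Lamp5, at a similar level, did not pass, with a log2 fold change of 0.17.

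Cdh7 had the largest increase of any member, in Exc-DG, at 1.17 and 1.24 CPM in B6 and 9.83 and 11.3 CPM in D2 (26 and 179 counts, log2 fold change 3.12, standard error 0.25, adjusted p = 1.98e-07). It was also higher in D2 in Exc-CA1-Camk2d (1.25) and Exc-ENT (1.00), and lower in Exc-Gpc6 (-0.69). Exc-DG had the lowest B6 mean of Cdh7 among the types tested. Cdh22 was higher in D2 in 5 of 13 types and lower in none. In Exc-DG it was at 10.1 and 9.55 CPM in B6 and 21.3 and 17.3 CPM in D2 (0.98, adjusted p = 0.000127). Its largest difference was in Inh-CGE (9.86 and 4.93 against 21.3 and 15.5 CPM, 1.32, adjusted p = 0.0153), which DESeq2 and the fits without B6 library 3 (0.91), D2 library 2 (1.05) and D2 library 3 (1.52) did not call.

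**Figure D3:**
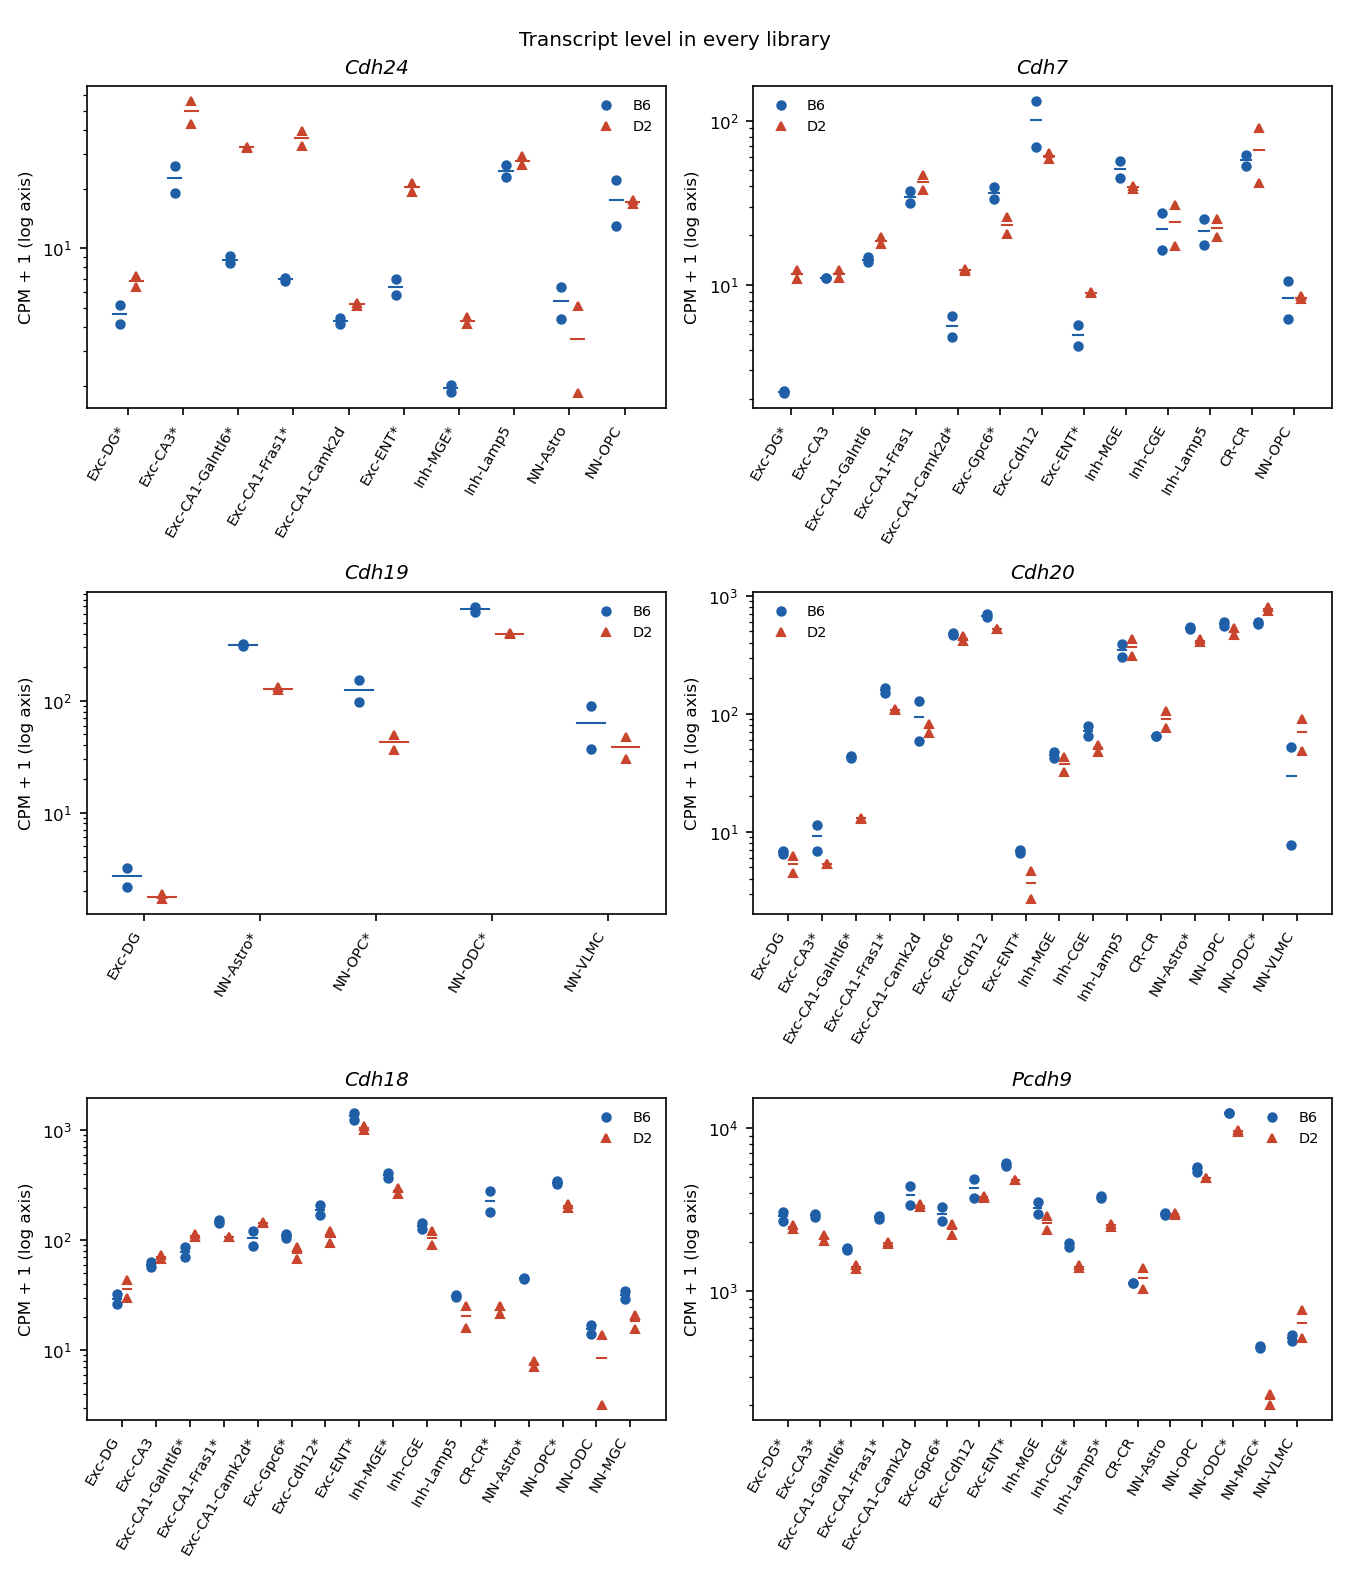
CPM plus 1 (log axis, scaled within the type) of 6 members in every library of each type tested; circles are B6 and triangles D2 libraries, bars are group means, and an asterisk marks adjusted p under 0.05. Cdh24 triangles lie above the circles in every starred type, and Cdh19 triangles lie below the circles in NN-Astro, NN-OPC and NN-ODC.

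Cdh19 was lower in D2 in all 3 glial types where it was abundant. The B6 libraries were at 321 and 308 CPM and the D2 libraries at 133 and 123 CPM in NN-Astro (log2 fold change -1.30, standard error 0.10, adjusted p = 3.17e-13), at 152 and 97.2 against 48.3 and 35.3 CPM in NN-OPC (-1.57, 0.18, adjusted p = 5.95e-14) and at 695 and 624 against 394 and 403 CPM in NN-ODC (-0.72, 0.11, adjusted p = 1.76e-05). The groups did not overlap in any of the 3 types, and the marker lists of NN-ODC (10305 and 11082 CPM in B6 and D2) and NN-OPC (2241 and 2232 CPM) were at near-equal levels. Oligodendrocyte markers within NN-Astro were lower in D2 (299 and 268 against 141 and 122 CPM), and their part in the astrocyte result was not tested. The 2 gene models on the strand of Cdh19 and inside it had counts in D2 only, 18.6% of the D2 counts of Cdh19. With these counts added to Cdh19, an alternative chosen after seeing the data, the log2 fold change was -1.05 in NN-Astro, -1.36 in NN-OPC and -0.47 in NN-ODC, and all 3 were still called.

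Cdh20 was lower in D2 in 5 types and higher in NN-ODC. In Exc-CA1-Galntl6 it was at 43.1 and 41.2 CPM in B6 and 11.93 and 12.04 CPM in D2 (log2 fold change -1.82, standard error 0.13, adjusted p = 1.84e-08), and in Exc-CA1-Fras1 at 164 and 150 against 109 and 106 CPM (-0.55, adjusted p = 8.21e-05). Both CA1 types therefore moved the same way, by unequal amounts. Cdh18 was lower in D2 in 8 types and higher in Exc-CA1-Galntl6 (69.5 and 86.1 against 106 and 112 CPM, 0.49, adjusted p = 0.000841) and Exc-CA1-Camk2d (0.46). In NN-Astro it was at 43.6 and 44.5 CPM in B6 and 7.02 and 6.09 CPM in D2 (-2.74, standard error 0.22, adjusted p = 2.90e-13), and in NN-OPC at 325 and 342 against 194 and 213 CPM (-0.71, adjusted p = 8.13e-08). In CR-CR it was at 179 and 278 CPM against 24.3 and 20.5 CPM, from 193 B6 and 6 D2 counts (-3.33, adjusted p = 0.000112), a call lost with no filter on low counts. Summed excitatory markers in NN-Astro were at 75.5 and 69.3 CPM in B6 and 61.4 and 48.4 CPM in D2. Other lists there were higher in D2, the entorhinal and subicular markers at 67.6 and 68.4 against 106 and 97.4 CPM. Oligodendrocyte precursor markers were at 47.4 and 50.6 against 63.8 and 66.1 CPM. The part of these markers in the astrocyte differences was not tested.

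Cdh6 was higher in D2 in 2 types and lower in 4. In Exc-CA1-Galntl6 it was at 16.6 and 11.8 CPM in B6 and 4.31 and 5.43 CPM in D2 (log2 fold change -1.56, adjusted p = 5.28e-05). Its largest difference was in CR-CR, with 87 counts in B6 and 3 in D2 (108 and 97.5 against 24.3 and 0 CPM, -3.16, adjusted p = 0.00758). The ratio of shares was 9.10 (exact 95% interval for counting error only, 3.01 to 45.0). That call was lost with DESeq2, with no filter, without B6 library 2 (-3.09) and without D2 library 3 (-2.07), and without D2 library 2, which held all D2 counts, the fitted value was -8.10, which against a library at 0 is no bound. The Cajal-Retzius markers were lower in the same D2 libraries. The values of Cdh6 and Cdh18 in CR-CR therefore rest on few D2 nuclei.

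Cdh8 was lower in D2 in 7 types and higher in NN-ODC. In Exc-DG, its highest type, it was at 614 and 600 CPM in B6 and 436 and 444 CPM in D2 (log2 fold change -0.46, standard error 0.06, adjusted p = 2.82e-05). In Inh-Lamp5 it was at 34.7 and 13.7 against 4.92 and 10.7 CPM (-1.60, adjusted p = 0.0295), which was lost with DESeq2 and without B6 library 2 (-0.83) or D2 library 2 (-1.14), and was -2.24 without D2 library 3. Cdh9 was higher in D2 in Exc-ENT (93.3 and 90.3 against 138 and 147 CPM, 0.63, adjusted p = 1.76e-06) and Exc-CA1-Camk2d (0.60), and lower in NN-Astro (means of 23.0 ± 0.493 against 10.3 ± 2.42 CPM, SD, n = 2, -1.17, adjusted p = 0.000120), NN-OPC and NN-MGC. The call in NN-MGC (34.6 and 66.5 against 12.3 and 23.7 CPM, -1.48, adjusted p = 0.0343) was lost with DESeq2 and without B6 library 3 (-0.87) or D2 library 2 (-1.13), and was -2.08 without D2 library 3. Cdh9 in Exc-DG, where it was most abundant, did not pass. The astrocyte, oligodendrocyte and excitatory markers in NN-MGC given for Cdh2 were lower in the same D2 libraries. The precursor, vascular and leptomeningeal markers given there were higher.

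Cdh12 was lower in D2 in 5 of 17 types and higher in none, as in Exc-ENT at 87.0 and 68.8 against 49.3 and 50.6 CPM (log2 fold change -0.64, adjusted p = 5.32e-05). In NN-OPC it was at 36.0 and 51.8 against 20.8 and 18.0 CPM (-1.19, adjusted p = 0.000119), which DESeq2 did not call. Cdh10 was lower in Exc-CA1-Galntl6 (207 and 218 against 139 and 169 CPM, -0.47, adjusted p = 0.000326) and Inh-MGE, and higher in Exc-ENT and NN-ODC. Cdh11 was lower in Inh-MGE (155 and 153 against 96.9 and 117 CPM, -0.54, adjusted p = 0.00257, lost without D2 library 2 at -0.40) and higher in Exc-CA1-Galntl6 (0.20). Cdh5 in NN-VLMC was at a log2 fold change of -0.04 and did not pass. Endothelial markers in those libraries were at 666 and 629 CPM in B6 and 329 and 397 CPM in D2. Vascular and leptomeningeal markers were at 1160 and 1118 against 1374 and 1692 CPM. The part of these markers in the Cdh5 value was not tested.

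Of the other cadherins, Cdh13 was lower in D2 in Exc-CA1-Fras1 (549 and 580 against 434 and 444 CPM, log2 fold change -0.36, adjusted p = 0.000643) and Exc-CA3 (-0.33), and higher in Exc-ENT (0.28). Cdh23 did not differ at adjusted p under 0.05 in NN-MGC, its leading type, and was lower in D2 in Inh-MGE at 4.46 against 1.09 CPM (33 and 8 counts), a level under the 5 CPM required for naming and chosen here after its values were seen.

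Delta-1 protocadherins had 4 tests higher and 17 lower in D2 of 65, beside 12.9% and 9.25% over all genes. Pcdh9, the most abundant member, was lower in D2 in 10 of 17 types and higher in none. In Exc-CA1-Fras1 it was at 2788 and 2885 CPM in B6 and 2004 and 1955 CPM in D2 (log2 fold change -0.52, standard error 0.06, adjusted p = 5.75e-07), and in NN-MGC at 446 and 461 against 199 and 235 CPM (-1.05, standard error 0.15, adjusted p = 8.08e-05). Every D2 library lay below every B6 library in both. Pcdh9 was highest in NN-ODC, and the oligodendrocyte markers in NN-MGC (320 and 352 against 258 and 133 CPM) were lower in the same D2 libraries. So were the astrocyte markers there (383 and 331 against 260 and 224 CPM). The precursor markers there were higher in D2 (14.3 and 13.8 against 31.9 and 18.2 CPM). The part of these markers in the result was not tested. Pcdh7 was higher in D2 in Exc-DG (59.4 and 67.0 against 98.5 and 104 CPM, 0.68, adjusted p = 1.64e-05) and lower in 5 types, among them Exc-CA1-Galntl6 (470 and 483 against 403 and 376 CPM, -0.29, adjusted p = 0.00102). Exc-DG had the lowest B6 mean of Pcdh7 among the excitatory types. Its largest difference was in NN-VLMC (308 and 578 against 213 and 105 CPM, -1.45, adjusted p = 0.000161), which was lost without B6 library 3 (-0.90), was -2.12 without D2 library 2, and was -1.29 and called when overlapping counts were added. In NN-VLMC the endothelial (666 and 629 against 329 and 397 CPM), pericyte (130 and 108 against 42.1 and 36.1 CPM) and oligodendrocyte precursor markers (527 and 307 against 255 and 321 CPM) had lower means in D2, and their part was not tested. Gene models inside Pcdh7 with counts in D2 only equalled 12.6% of its D2 counts. With them added, Pcdh7 was no longer called in Exc-CA1-Galntl6 (-0.13, adjusted p = 0.116), Exc-ENT (-0.20) or Inh-MGE (-0.22), was still higher in D2 in Exc-DG (0.82) and was also higher in Exc-Gpc6 (0.48) and NN-Astro (0.27). The lower calls of Pcdh7 in those 3 neuron types were thus not kept when these gene models were counted with it. Pcdh11x, an X-linked gene, was higher in D2 in 3 types, such as Exc-CA1-Galntl6 (19.5 and 20.7 against 37.9 and 28.0 CPM, 0.72, adjusted p = 0.00107), and lower in 2, with the largest difference in NN-ODC (355 and 249 against 149 and 164 CPM, -0.94, adjusted p = 2.83e-05). Pcdh1 was called in none of 15 types, with log2 fold changes from -0.88 to 0.18.

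Delta-2 protocadherins had 6 tests higher and 1 lower in D2 of 63, beside 12.9% and 9.25% over all genes. Pcdh17 was higher in D2 in 5 of 17 types and lower in none, as in Exc-CA3 at 163 and 171 against 215 and 275 CPM (log2 fold change 0.55, adjusted p = 0.000438). Its largest difference was in Inh-Lamp5 (69.3 and 67.6 against 97.2 and 106 CPM, 0.57, adjusted p = 0.0403), a call lost with DESeq2 and in each fit without 1 library (0.50 to 0.62). Pcdh10 was higher in Exc-ENT only (118 and 130 against 153 and 164 CPM, 0.35, adjusted p = 0.00449), lost with DESeq2 and without B6 library 2 (0.28) or D2 library 3 (0.30). Pcdh18 was lower in Inh-MGE, at 9.41 and 7.99 against 2.47 and 3.79 CPM (-1.50, adjusted p = 0.00572), lost with DESeq2 and without D2 library 2 (-1.19). Pcdh19, whose loss causes a human epilepsy, and Pcdh8 were called in no type.

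Among the other nonclustered protocadherins, Pcdh15 was higher in D2 in 5 types and lower in 5 of 17. In Exc-DG it was at 65.6 and 59.5 CPM in B6 and 99.1 and 98.2 CPM in D2 (log2 fold change 0.66, adjusted p = 1.50e-05), in NN-ODC at 229 and 244 against 358 and 370 CPM (0.62, adjusted p = 0.000291) and in Inh-Lamp5 at 643 and 693 against 319 and 374 CPM (-0.95, standard error 0.12, adjusted p = 1.01e-06). The direction thus differed between dentate granule cells and Lamp5 interneurons with no overlap of the strains in either. Its largest difference was in NN-VLMC (65.2 and 96.3 against 40.2 and 25.3 CPM, -1.28, adjusted p = 0.0272), lost with DESeq2 and without B6 library 3 (-0.91) or D2 library 3 (-1.04). Pcdh15 was highest in NN-OPC, and the precursor markers in NN-VLMC were at 527 and 307 CPM in B6 and 255 and 321 CPM in D2. The endothelial (666 and 629 against 329 and 397 CPM) and pericyte markers (130 and 108 against 42.1 and 36.1 CPM) were lower there in both D2 libraries, and the part of these markers was not tested. Pcdh20 was higher in Exc-DG (0.37) and lower in 3 types, as in Exc-CA3 at 32.4 and 30.5 against 19.9 and 19.8 CPM (-0.67, adjusted p = 0.00107). Its call in Inh-CGE (8.22 and 10.4 against 4.08 and 2.76 CPM, -1.40, adjusted p = 0.0318) was lost with DESeq2 and in each fit without 1 library (-1.73 to -1.17), and with only genes counted in both strains.

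Whether the strain difference itself differed between cell types was tested in 1 fit over all types with the library as a term. Of 29 members tested, 18 (62.1%) passed at adjusted p under 0.05, against 14.6% of 21050 genes. The lowest adjusted p-values were those of Cdh18 (3.27e-16), Cdh7 (4.37e-12) and Pcdh15 (4.54e-12). Cdh4, which was higher in Exc-DG and Exc-CA1-Camk2d and lower in the other CA1 types, passed at 3.50e-09, and Cdh24, higher wherever it was called, at 3.95e-09. Cdh19 did not pass (adjusted p = 0.415), nor did Cdh2 (0.230) or Pcdh17 (0.228). These members went 1 way in every type where they were called, and a p above the threshold does not show that the types were alike.

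Gene models counted in 1 strain only bear on these comparisons. Of all symbols, 4287 were counted in D2 (20 counts or more) and never in B6, and 178 in B6 and never in D2. In all, 10 members overlapped a gene on their own strand with counts in D2 only, while none overlapped one with counts in B6 only. The longest such overlap was 4033 bases. When the counts of those genes were added to the member, 124 tests passed in place of 125, though not all in the same types, as given for Pcdh7. Differences between the strains in read mapping and in gene list cannot be told apart from differences in transcript level.

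A list of 39 partners and relatives was compared in the same way, and 95 of 596 tests (15.9%) passed, 12 higher and 83 lower in D2, where 22.1% of all tests passed. With only genes counted in both strains, 90 partner tests passed, where 14.4% of all tests did. The catenins and junction genes held most of the 95 calls, with 5 tests higher and 46 lower of 179 over 11 genes. Over all genes 12.9% of tests were higher and 9.25% lower in D2. Ctnnd1, the p120 catenin that binds and stabilises cadherins at the membrane, was lower in D2 in 16 of 17 types. In Exc-DG it was at 41.7 and 43.1 CPM in B6 and 7.26 and 7.72 CPM in D2 (log2 fold change -2.50, standard error 0.13, adjusted p = 1.55e-09), and CR-CR was the type that did not pass (-1.29). A gene model on the same strand, Gm28635, covers 49327 bases of Ctnnd1 and had counts in D2 only (49), and its part in this difference was not tested. Ctnna3 was lower in 12 types (as in NN-VLMC, 289 and 130 against 34.5 and 57.7 CPM, -2.17, adjusted p = 1.44e-05, and -1.57 without B6 library 2), Clstn2 in 9 (NN-MGC, 132 and 81.7 against 34.3 and 32.8 CPM, -1.63, adjusted p = 0.00188) and Ctnna2 in 6 of 17, with 1 higher (Inh-CGE, 1735 and 1995 against 1429 and 1294 CPM, -0.45, adjusted p = 0.0112). The NN-VLMC libraries are those whose endothelial and pericyte markers were lower in D2. The call of Clstn2 was lost with DESeq2 and that of Ctnna2 without B6 library 3 (-0.35), D2 library 2 (-0.53) or D2 library 3 (-0.38).

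Few partners were higher in D2. Vcl (vinculin) was higher in 3 types and lower in 1, NN-Astro (-0.59), for example higher in Exc-ENT (21.6 and 21.3 against 29.4 and 30.4 CPM, log2 fold change 0.48, adjusted p = 0.0275), Celsr1 in 2 (Exc-CA3, 2.69 and 2.74 against 9.60 and 6.44 CPM, 1.58, adjusted p = 0.000602), Wasf1 in 2 (Exc-CA3, 0.24, adjusted p = 0.0303) and Abi2 in 1 (Exc-CA1-Galntl6, 0.26, adjusted p = 0.00775). The calls of Vcl and Wasf1 were lost with DESeq2 and in each fit without 1 library (0.46 to 0.50 and 0.22 to 0.26), and that of Abi2 without D2 library 3 (0.22). Beta-catenin (Ctnnb1) and Ctnna1 were called in no type.

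The snATAC-seq libraries give a second readout of the same genes, in cell types that the authors named by transfer from snRNA-seq. Peaks within 1000 bases of an annotated start numbered 78 for 34 members, and they were tested in the 4 types with the most nuclei. Of 310 tests of a peak in a type, 14 passed at adjusted p under 0.05 (4.52%), near the 4.73% of all 1178521 tests of peaks. In 8 of the 14 the transcript was called in the same direction in that type, in 1 in the opposite direction, and in 5 it was not called. Conversely, of 41 transcript calls of members in these types, 6 had a promoter peak called in the same direction.

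**Figure D4:**
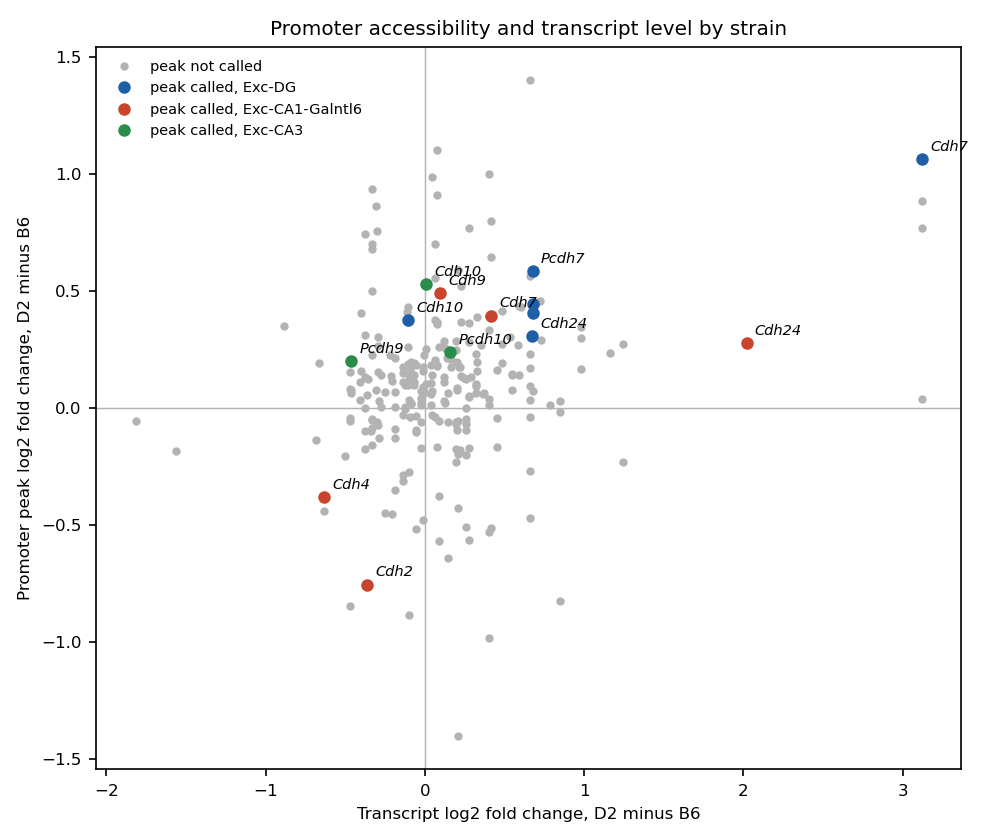
Log2 fold change of D2 against B6 for each promoter peak (vertical) against that of its transcript in the same type (horizontal). Points are those of the 310 tests in 4 types whose transcript was also tested. Coloured points are peaks at adjusted p under 0.05, named by gene. Cdh7 in Exc-DG lies farthest right and highest among the coloured points, and Pcdh9 in Exc-CA3 lies left of 0 and above it.

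The peak over the start of Cdh7 (chr1:109981657-109983572, mm10), which holds the Cdh7 promoter printed above, was at 9.60 and 7.42 CPM in B6 and 17.2 and 18.4 CPM in D2 in Exc-DG (log2 fold change 1.06, standard error 0.10, adjusted p = 5.45e-20), the type in which its transcript differed most. In Exc-CA1-Galntl6 the same peak was at 18.8 and 21.7 against 27.8 and 25.4 CPM (0.39, adjusted p = 0.000583), where the transcript was at 0.42 with an adjusted p of 0.0522. The D2 libraries were the higher ones in both types, though without B6 library 2 the second call was lost (0.30). At Pcdh7 3 promoter peaks were higher in D2 in Exc-DG. The peak across the printed promoter (chr5:57717846-57718179) was at 6.52 and 7.38 against 9.84 and 10.8 CPM (0.59, adjusted p = 0.000113), and the peak before it (chr5:57716565-57717646) at 16.4 and 16.0 against 21.0 and 22.9 CPM (0.45, adjusted p = 1.91e-05). All 3 moved with the transcript, but the third (0.41, adjusted p = 0.0240) was lost without B6 library 2 (0.41), B6 library 3 (0.40) or D2 library 3 (0.28).

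The peak at Cdh24 (chr14:54640652-54641952) was higher in D2 in Exc-DG (26.2 and 27.5 against 34.3 and 32.4 CPM, log2 fold change 0.31, adjusted p = 0.00109) and in Exc-CA1-Galntl6 (27.2 and 26.8 against 34.0 and 31.6 CPM, 0.28, adjusted p = 0.0216). The transcript change in Exc-CA1-Galntl6 was 2.02 on the same scale, so peak and transcript differed in size. The call in Exc-DG was lost without B6 library 2 (0.28), and that in Exc-CA1-Galntl6 without B6 library 2 (0.29), B6 library 3 (0.27) or D2 library 2 (0.23). In Exc-CA1-Galntl6 peaks of Cdh2 (-0.76, adjusted p = 0.00221) and Cdh4 (-0.38, adjusted p = 0.00406) were lower with their transcripts. Both were lost without D2 library 2 (-0.52 and -0.31), that of Cdh4 also without B6 library 3 (-0.34). The Cdh2 peak (chr18:16670768-16671389) lay 699 bases from a start inside the gene. The peak over the start at the 5′ end of Cdh2 (chr18:16806609-16809889) was not called.

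The peak over the Cdh10 promoter printed above (chr15:18819304-18820912) was higher in D2 in Exc-DG (9.07 and 9.13 against 12.3 and 11.4 CPM, log2 fold change 0.38, adjusted p = 0.0171), while the transcript was at -0.11 and did not pass. A second peak of Cdh10 (0.53, adjusted p = 0.0475) and peaks of Pcdh10 (0.24, adjusted p = 0.0188) and Pcdh9 (0.20, adjusted p = 0.0434) were higher in Exc-CA3, the last against a transcript that was lower (-0.46), and a peak of Cdh9 was higher in Exc-CA1-Galntl6 (0.49, adjusted p = 0.00362). The 3 calls in Exc-CA3 were lost in each fit without 1 library (0.15 to 0.59), that of Cdh10 in Exc-DG without either B6 library or D2 library 2 (0.33 to 0.38), and that of Cdh9 without B6 library 3 (0.35) or D2 library 3 (0.45). DESeq2 called 2 of the 14 peaks, those of Cdh7 and Pcdh7 (chr5:57716565-57717646) in Exc-DG. The second peak of Cdh10 (chr15:18900560-18901468) lay 971 bases from a start inside the gene. With a window of 500 bases 12 of the 14 calls remained, without this peak and that of Cdh2.

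Across the 15 types held by both assays, and as a description with no test, promoter accessibility (summed CPM of a member's promoter peaks) and transcript level were related by a median Pearson r of 0.79 over 27 members on log2 values, with r above 0 for 25 of them. The highest was Cdh20 (r = 0.96), and 8 members had the same highest type in both assays, among them Pcdh9 (NN-ODC), Cdh18 (Exc-ENT), Cdh9 and Cdh8 (Exc-DG) and Pcdh11x (NN-OPC). Cdh24 (r = -0.14) and Cdh1 (r = -0.53) were the exceptions. Transcript means in these types ran only from 0 to 0.327 CPM for Cdh1. For Cdh5, which is among the 25, they ran from 0 to 0.880 CPM. The r values of Cdh1 and Cdh5 therefore rest on levels near 0. The promoter of Cdh24 lay between 28.0 and 42.3 CPM in every type, although its transcript means ran from 0.608 to 38.3 CPM over the same types. The points share libraries and depth, and NN-VLMC, the leading type of Cdh1 in snRNA-seq, was not among the 15 types. The authors transferred type names to snATAC-seq nuclei by linking transcript profiles with accessibility over gene bodies and promoter regions. Agreement across types between the assays is therefore partly built in. NN-ODC and NN-OPC held only 136 and 97 snATAC-seq nuclei in all.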

How the data were processed

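Nuclei were profiled by snRNA-seq and snATAC-seq in 2 libraries a strain for each assay. Both kinds of table hold raw counts deposited by the authors, with 1 value per gene symbol or peak for each type and library, added up over nuclei. The study's methods and processing notes name Cell Ranger 6.0.2 with intronic reads retained, Cell Ranger ATAC 2.0.0, Seurat 4.0.5, DoubletFinder, MACS peaks and the mm10 genome, with D2 reads mapped to a copy of mm10 carrying D2 single-nucleotide variants. The authors tested strains per cell type with DESeq2. Nuclei per type and library were taken from the deposited counts of nuclei.

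Columns were placed by strain only, because the tables number the libraries 2 and 3 and the labels number replicates 1 and 2. All 33902 symbols entered each fit. Strains were compared per type with edgeR 4.0.16 in R 4.3.3 (quasi-likelihood test, TMM, filterByExpr, Benjamini-Hochberg, threshold 0.05), and peaks with at least 10 counts likewise. DESeq2 1.42.0 was an alternative. Starts and overlaps came from GENCODE vM21 and promoter sequences from RefSeq. Tables and figures were made with Python 3.11.15, numpy 2.4.6, pandas 2.3.3 and matplotlib 3.10.9. An exact permutation test of 2 against 2 cannot go below 0.33, and p-values measure only the spread between libraries, each a pool of animals. Scripts were tested on simulated data.

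Members called in a type at 5 CPM or more with both D2 libraries on 1 side of both B6 libraries were named in the type of largest change, partners as the 4 in each direction called in most types, and levels under the highest type. Further calls were given for members whose named call was lost under an alternative. They were also given for members whose named call was kept, such as Cdh24 and Cdh19, and those types were not chosen by this rule. The members and lists were chosen with earlier results of these data known. Alternatives changed the test, scaling, filter, gene list, block, adjustment, window and libraries, and those adding overlapping counts or leaving out CR-CR and NN-VLMC were chosen after seeing the data. The 16 methylation samples were not analysed here. An item of the partner list is not reported here.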

Additional observations from a re-analysis of the deposited data

Results flagged for a closer look

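The strain difference itself differed between cell types for 18 members, by the test over all types (edgeR's quasi-likelihood test, Benjamini-Hochberg adjusted). Adjusted p was 3.27e-16 for Cdh18, 4.37e-12 for Cdh7, 4.54e-12 for Pcdh15, 3.50e-09 for Cdh4, 3.65e-09 for Cdh6 and 3.95e-09 for Cdh24. It was 8.87e-09 for Cdh20, 4.21e-08 for Cdh9, 7.09e-07 for Pcdh7, 3.27e-06 for Cdh22, 3.165e-05 for Cdh8 and 4.79e-05 for Pcdh11x. It was 0.00038 for Cdh10, 0.000813 for Pcdh20, 0.00134 for Pcdh9, 0.00243 for Cdh13, 0.00372 for Cdh11 and 0.00538 for Cdh12.

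Genes lying inside 10 members on the same strand, counted apart from the members in the reported comparisons, held 12951 counts in D2 and 0 in B6.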

How the results depend on the processing

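Of the 125 member calls, DESeq2 made 71, and 47 were kept in every planned setting. With 1 library left out, 81 to 124 member tests passed in all, with 81 without D2 library 3 and 124 without B6 library 2. These totals include tests that were not among the 125, and fewer of the 125 were kept in each of these fits. The 95 partner calls ranged from 59 (without D2 library 3) to 106 with 1 library left out. Of the 14 promoter peak calls DESeq2 made 2. With 1 library left out, 6 to 13 promoter peak tests passed in all, the fewest without B6 library 2 (6) and B6 library 3 (8). These totals can include peaks that were not among the 14. The 18 strain-by-type calls ranged from 16 to 22 and the 4 members led by 1 type from 4 to 5 with 1 library left out. With B6 libraries only 8 members were led by 1 type, with D2 libraries only 8, and 2 without CR-CR and NN-VLMC, where Cdh5 and Cdh1 lost their leading type. Otherwise the cause was not tested. No member call changed sign when 1 library was left out, and no named fold change did so under the alternatives computed for it. With the library number as a replicate block 132 member, 96 partner and 18 peak tests passed, and Cdh6 in CR-CR (-3.15) and Pcdh20 in Inh-CGE (-1.40) were lost. Same-numbered libraries did not deviate together (correlation -0.198 to 0.0852 over types), so the numbers were not read as pairs. With 2 pooled libraries a strain and as few as 139713 counts in a column, small differences in CR-CR, NN-VLMC and NN-MGC were not detectable at this depth.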
